A study of Mus musculus with 6 samples.

Results

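Voltage-gated sodium channels carry the current of the action potential upstroke, and the genes described here encode 8 of their subunits. The set was chosen by name: 5 genes for pore-forming α subunits (Scn1a, Scn2a, Scn3a, Scn8a and Scn9a, which encode Nav1.1, Nav1.2, Nav1.3, Nav1.6 and Nav1.7) and 3 genes for auxiliary β subunits (Scn2b, Scn3b and Scn4b). They are 8 of the 49568 gene names measured, and all 8 were among the 17614 genes tested for a difference between groups. The rule used no measured value, although the set was proposed with earlier results of these data known.

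The RNA came from single neurons drawn by micropipette out of the preBötzinger complex (preBötC), the region of the ventral medulla that generates the inspiratory rhythm, in mice at postnatal day 2. All 6 samples came from reporter mice of the genotype Dbx1CreERT2; Rosa26tdTomato, in which a tamoxifen-inducible Cre under control of Dbx1 switches on the red protein tdTomato in cells descended from Dbx1-expressing progenitors. The 3 Dbx1 samples held fluorescent neurons. The 3 non-Dbx1 samples held neuronal somata of the same region that did not fluoresce, a group defined by the absence of the reporter that can hold neurons of several lineages. Each sample pooled 15 neurons from 1 animal, and each came from a different animal, so a value is the average of 15 neurons and does not show how single neurons differed. A pool in which fewer neurons express a gene cannot be told apart from a pool in which each neuron holds less of its RNA.

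An α subunit is a single long protein of 4 homologous domains that forms the pore, senses voltage and inactivates within milliseconds, whereas β subunits are small membrane proteins with an immunoglobulin fold that alter gating and place the channel at the cell surface. Nav1.2 and Nav1.3 are abundant in the developing brain, Nav1.1 is prominent in many inhibitory interneurons, Nav1.6 is the main channel of mature axon initial segments, and Nav1.7 is best known from peripheral sensory neurons. In the preBötC a slowly inactivating, persistent sodium current has long been discussed as a source of bursting, and Nav1.6 and the β4 subunit are known for persistent and resurgent current.

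The genes are alike in sequence, which bears on reads assigned by sequence. Over whole transcripts, 4.03% of the windows of 50 bases of Scn1a were identical to a window of another sodium channel gene, and the shares were 5.62% for Scn2a, 6.49% for Scn3a, 4.04% for Scn9a and 0.0374% for Scn8a. The β genes shared no such window with another sodium channel gene. Reads from a shared window cannot be assigned to 1 gene by sequence alone.

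The genes lie in clusters. On chromosome 2 of GRCm38 the order is Scn3a (65457118 to 65567627), Scn2a (65620771 to 65767447), Scn1a (66270778 to 66440840) and Scn9a (66480080 to 66634962), whereas Scn8a is alone on chromosome 15 (100869858 to 101045938). All 3 β genes lie on chromosome 9, with Scn2b (45117782 to 45130070) and Scn4b (45138395 to 45154152) as neighbours and Scn3b apart from them (40269217 to 40291618). Counting did not use strand, and 180 exon bases of Scn9a (1.41% of its exon bases) overlap the antisense gene Gm13629. The gene of origin of a read in that overlap cannot be told from its position, and whether such reads were counted for Scn9a was not examined.

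Expression was deposited as RPKM, the reads on a gene scaled to the length of its exons in kilobases and to the reads on all genes of the sample. A sample had 6464675 to 9432958 reads on genes, of which the 8 subunit genes held 6880 to 11174 reads, or 0.0865% to 0.161%. With 3 reads taken as the floor of detection, a gene as long as Scn4b was detectable from an RPKM of 0.0638 to 0.0931, depending on the sample, and floors of this kind cover counting error only. L2FC denotes the mean of log2(RPKM + 1) in Dbx1 neurons minus that in non-Dbx1 neurons, a scale that understates the change of genes with low values. It was tested with limma, and FDR is the Benjamini-Hochberg value over all 17614 genes. For single values a two-sided exact permutation test was used, and with 3 samples in each group its smallest p is 0.1.

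The samples were neuronal by their marker genes. Of the sums for other cell types, those of red blood cells and vascular cells did not overlap between the groups. Each had an exact permutation p of 0.1, the smallest possible, and 0 of the genes of other cell types had an FDR under 0.1. All 7 neuronal markers were above 0 in every sample, and their summed RPKM was 1375 to 2211 for Dbx1 and 1331 to 1835 for non-Dbx1 neurons. Genes of red blood cells summed to 733 to 14058 in the non-Dbx1 and 90.3 to 507 in the Dbx1 samples, and 4 of 5 had an unadjusted limma p under 0.05. Oligodendrocyte markers summed to 68.4 to 495 in the non-Dbx1 samples and to 28.4 to 73.2 in the Dbx1 samples (3 of 5 with p under 0.05). These ranges overlapped (exact permutation test, p = 0.3). Vascular markers summed to 0.988 to 69.4 in the non-Dbx1 and 0.0627 to 0.507 in the Dbx1 samples (0 of 5 with p under 0.05). Cldn5 alone was at 63.7 in non-Dbx1 replicate 2, and the L2FC was below 0 for 4 vascular markers and above 0 for 1. Astrocyte markers summed to 21.4 to 26.6 in the Dbx1 samples and 24.4 to 39.5 in the others, and microglial markers to 0.202 to 10.4 and 0.739 to 13.3, with Itgam at 0 throughout. Non-Dbx1 replicate 1 was the highest in the oligodendrocyte and red blood cell lists, with an RPKM of 155 for Mbp and 7238 for Hbb-bs. The part of these cells in the results below was not tested, and values without that sample are given where they turn a direction.

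All 5 pore-forming genes were detected in all 6 samples, and none of them was called different between the Dbx1 and the non-Dbx1 neurons. Of the 8 subunit genes, 0 had an FDR under 0.1 and 0 had an unadjusted limma p under 0.05, where 0.00568% and 5.2% of all tested genes did, and 0 had an unadjusted p under 0.05 in a voom fit to recovered reads. The groups overlapped for all 8, whereas 10.6% of all tested genes had groups that did not overlap. The L2FC was above 0 for 4 of the 8 and below 0 for the other 4, under each of 3 scalings, and 50.8% of all tested genes lay above 0. The median size of the L2FC was 0.53 for the 8 genes and 0.33 for all tested genes.

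**Figure D1:**
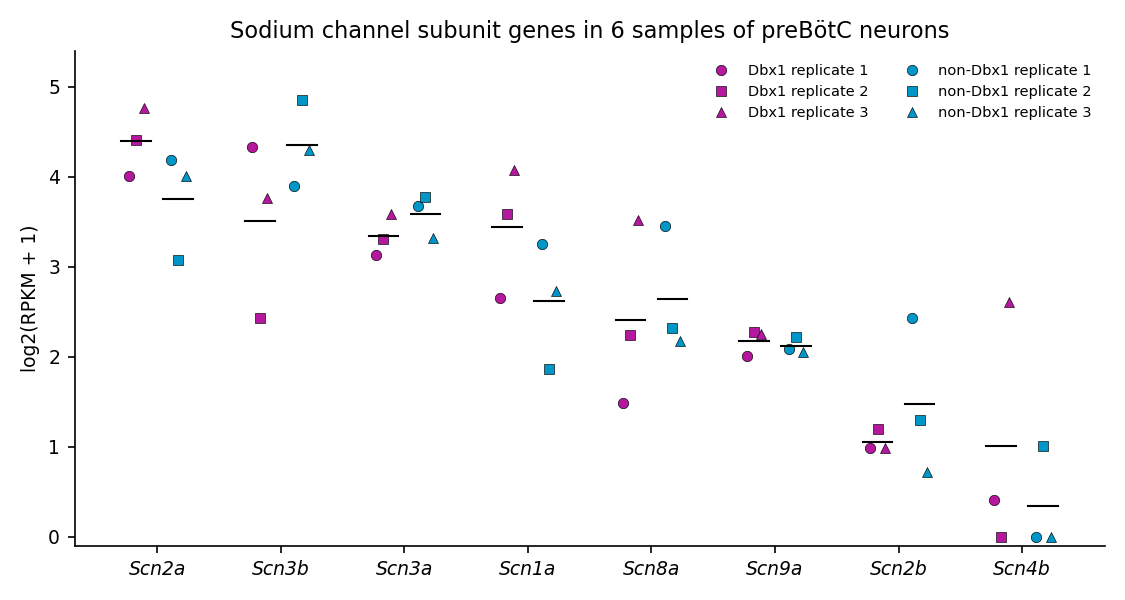
The vertical axis is log2(RPKM + 1) and each point is 1 sample of 15 neurons, coloured by group and shaped by replicate number, with a black line at each group's mean of 3. The 6 points of Scn9a lie almost on top of each other, those of Scn1a, Scn8a and Scn3b are spread widely, and the groups overlap for every gene.

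Scn2a, which encodes the Nav1.2 channel of young axons, had the highest mean RPKM of the pore-forming genes. Its RPKM was 15.0, 20.3 and 26.2 for Dbx1 and 17.2, 7.41 and 15.1 for non-Dbx1 replicates 1 to 3. Non-Dbx1 replicate 2 stood below all others, and the lowest Dbx1 sample was below 2 of the 3 non-Dbx1 samples. The means were 20.5 ± 5.61 (SD, n = 3) and 13.2 ± 5.16 (SD, n = 3). The L2FC was 0.64 (standard error 0.383, 95% interval -0.24 to 1.52), with a limma FDR of 0.936.

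Scn1a, the gene of Nav1.1, had the largest L2FC above 0 of the 8 with a pseudocount of 1, although Scn4b exceeded it with a pseudocount of 0.1 (1.44 against 0.94) and with voom (2.34 against 0.97). Its RPKM was 5.28, 10.99 and 15.8 in Dbx1 neurons and 8.54, 2.63 and 5.66 in non-Dbx1 neurons. Dbx1 replicates 2 and 3 were above every non-Dbx1 sample, but Dbx1 replicate 1 was below 2 of them. The means were 10.7 ± 5.28 and 5.61 ± 2.96 (SD, n = 3 each). The L2FC was 0.82 (standard error 0.532, 95% interval -0.40 to 2.04), with a limma FDR of 0.936.

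Scn3a encodes Nav1.3, a channel of embryonic and neonatal neurons that declines with age in the rodent brain. Its RPKM was 7.74, 8.91 and 10.99 for Dbx1 and 11.7, 12.6 and 9.02 for non-Dbx1 replicates 1 to 3. The 2 highest values were non-Dbx1, and only Dbx1 replicate 3 overlapped the other group. The L2FC was -0.25 (standard error 0.330, 95% interval -1.004 to 0.507), with a limma FDR of 0.960. The highest sample was 1.63 times the lowest.

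Scn8a, the gene of Nav1.6, was among the most variable of the set. Its RPKM was 1.80, 3.72 and 10.4 in Dbx1 neurons and 9.96, 3.97 and 3.51 in non-Dbx1 neurons. One sample of each group was near 10 and the other 4 were below 4, so the spread within a group was larger than the difference between the means. These were 5.32 ± 4.53 and 5.81 ± 3.60 (SD, n = 3 each). The L2FC was -0.23 (standard error 0.648, 95% interval -1.71 to 1.25, limma FDR 0.983), and it turned to 0.17 without non-Dbx1 replicate 1 and to 0.23 without Dbx1 replicate 1.

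Scn9a, the gene of Nav1.7, was lower on average than the other α genes but present at nearly the same level everywhere. Its RPKM was 3.03, 3.83 and 3.77 for Dbx1 and 3.24, 3.65 and 3.15 for non-Dbx1 replicates 1 to 3, on 412 to 614 reads per sample. The highest sample was 1.27 times the lowest, the smallest such ratio of the set. The means were 3.54 ± 0.447 and 3.35 ± 0.264 (SD, n = 3 each), with an L2FC of 0.06. Over the 6 samples the SD of log2(RPKM + 1) was 0.113, whereas the median SD of the 3365 other tested genes with a mean RPKM within 1.5-fold was 0.764, and 0.0297% of those genes had a smaller SD. Scn3a was also steady on this scale, with an SD of 0.248 and 5.09% of the 2671 genes of like level below it. For the remaining members 27.5% (Scn2b) to 88.7% (Scn4b) of genes of like level had a smaller SD. Genes of like level were matched on RPKM alone, and at the same RPKM a shorter gene rests on fewer reads. The limma interval of Scn9a, -1.04 to 1.16, is wider than its own replicates, since limma moves the variance of each gene towards that of others at the same level.

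**Figure D2:**
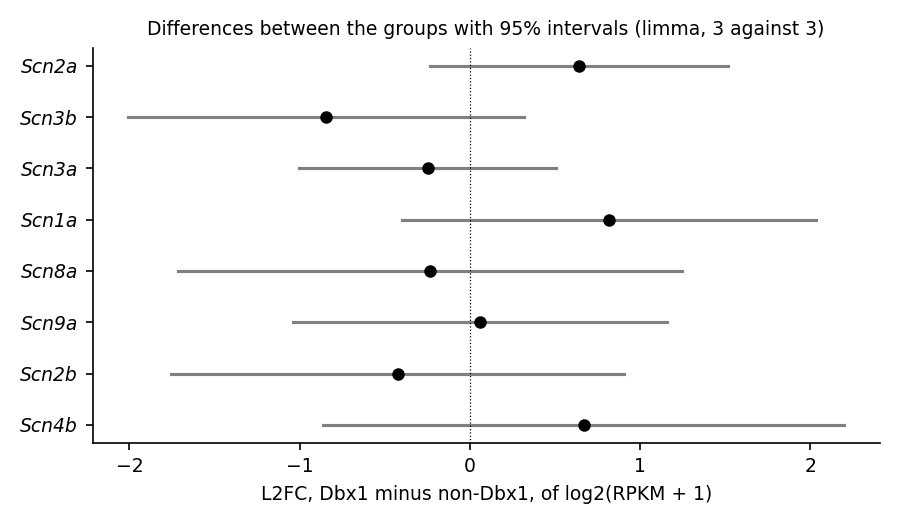
Each point is the L2FC of a gene, Dbx1 minus non-Dbx1, and each line its 95% interval from limma on 3 against 3 samples. All 8 intervals include 0, with Scn1a at 0.82 and Scn3b at -0.84 as the extremes.

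Among the β subunits, Scn3b was the abundant one. The β3 subunit it encodes is known from embryonic and neonatal brain and joins α subunits without a covalent bond. Its RPKM was 19.1, 4.39 and 12.6 in Dbx1 neurons and 13.9, 27.9 and 18.7 in non-Dbx1 neurons. Dbx1 replicate 2 was the lowest and non-Dbx1 replicate 2 the highest, 6.36 times as high, while Dbx1 replicate 1 lay above 2 of the 3 non-Dbx1 samples. The L2FC was -0.84 (standard error 0.508, 95% interval -2.01 to 0.32), with a limma FDR of 0.936. Without Dbx1 replicate 1 it was -1.26, the unadjusted limma p fell under 0.05 and the FDR was 0.916, and without Dbx1 replicate 2 it was -0.31.

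Scn2b encodes β2, which is linked to α subunits by a disulfide bond and belongs to more mature neurons. Its RPKM was 0.977, 1.29 and 0.977 for Dbx1 and 4.38, 1.45 and 0.644 for non-Dbx1 replicates 1 to 3, on 50 to 233 reads. The non-Dbx1 mean rested on replicate 1 alone, since the other 2 samples lay on either side of the Dbx1 values. The L2FC was -0.42 (standard error 0.582, limma FDR 0.962) with all samples and 0.050 without non-Dbx1 replicate 1.

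Scn4b, the gene of β4, was detected in 3 of the 6 samples. Its RPKM was 0.328, 0 and 5.08 in Dbx1 neurons and 0, 1.01 and 0 in non-Dbx1 neurons, on 13, 0 and 176 reads and on 0, 43 and 0 reads. Dbx1 replicate 3 alone held 176 of its 232 reads. In the 3 samples with 0 reads, the floor of 3 reads allowed an RPKM of up to 0.0800, 0.0931 and 0.0638. The L2FC of 0.67 (standard error 0.669, limma FDR 0.952) became -0.13 without Dbx1 replicate 3.

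Summed over the α genes, RPKM was 32.9, 47.8 and 67.3 for Dbx1 and 50.7, 30.3 and 36.4 for non-Dbx1 replicates 1 to 3. The groups overlapped, and the difference of mean log2 sums was 0.30 (exact permutation test, p = 0.5). It was 0.050 without Dbx1 replicate 3, 0.14 without non-Dbx1 replicate 2, 0.50 without non-Dbx1 replicate 1 and 0.56 without Dbx1 replicate 1. Summed over the 3 β genes it was 20.4, 5.68 and 18.6 against 18.3, 30.4 and 19.4. Scn3b supplied the most of the 3 in every sample, and the difference of mean log2 sums was -0.71 (exact permutation test, p = 0.5), or -0.17 without Dbx1 replicate 2.

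The mix of α transcripts within a sample does not depend on how samples are scaled to each other. In the deposited RPKM, Scn2a supplied 37.8% ± 7.64 of the α sum (SD, n = 6), Scn3a 24.7% ± 8.95, Scn1a 17.3% ± 5.49, Scn8a 11.9% ± 5.25 and Scn9a 8.32% ± 2.28. Scn2a held the largest share in 5 of 6 samples. The exception was non-Dbx1 replicate 2, where Scn3a supplied 41.7% and Scn2a 24.5%.

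Between the groups, Scn2a supplied 42.4% ± 3.35 of the α sum in Dbx1 neurons and 33.3% ± 8.48 in non-Dbx1 neurons (SD, n = 3 each). The share of Scn1a was 20.9% ± 4.17 against 13.7% ± 4.40, and that of Scn3a was 19.5% ± 3.68 against 29.9% ± 10.3. For each of these 3 genes the exact permutation test gave p = 0.2, with an FDR of 0.333 over the 5 shares. For Scn8a (9.59% against 14.1%) the exact permutation p was 0.4, and for Scn9a (7.61% against 9.03%) it was 0.5. Without non-Dbx1 replicate 2 the difference, Dbx1 minus non-Dbx1, went from 9.15 to 4.74 percentage points for Scn2a, from 7.18 to 4.67 for Scn1a and from -10.4 to -4.45 for Scn3a. For Scn8a it went from -4.54 to -1.78 without non-Dbx1 replicate 1, to -2.47 without Dbx1 replicate 1 and to -7.50 without Dbx1 replicate 3.

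The same mix can be read from the ratios of 2 genes within a sample, whose difference between the groups does not depend on exon length. Of the 10 ratios between α genes, 1 had groups that did not overlap, a share like the 10.6% of all tested genes. The RPKM of Scn2a over that of Scn3a was 1.94, 2.28 and 2.39 in Dbx1 neurons and 1.47, 0.586 and 1.67 in non-Dbx1 neurons. The exact permutation test gave p = 0.1, the smallest that 3 against 3 allows, with an FDR of 0.4 over the 10 ratios. The ratio of Scn1a to Scn2a moved least among the pairs with Scn2a, from 0.351 to 0.603, and its groups overlapped. These ratios were compared after the values of the genes had been seen.

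**Figure D3:**
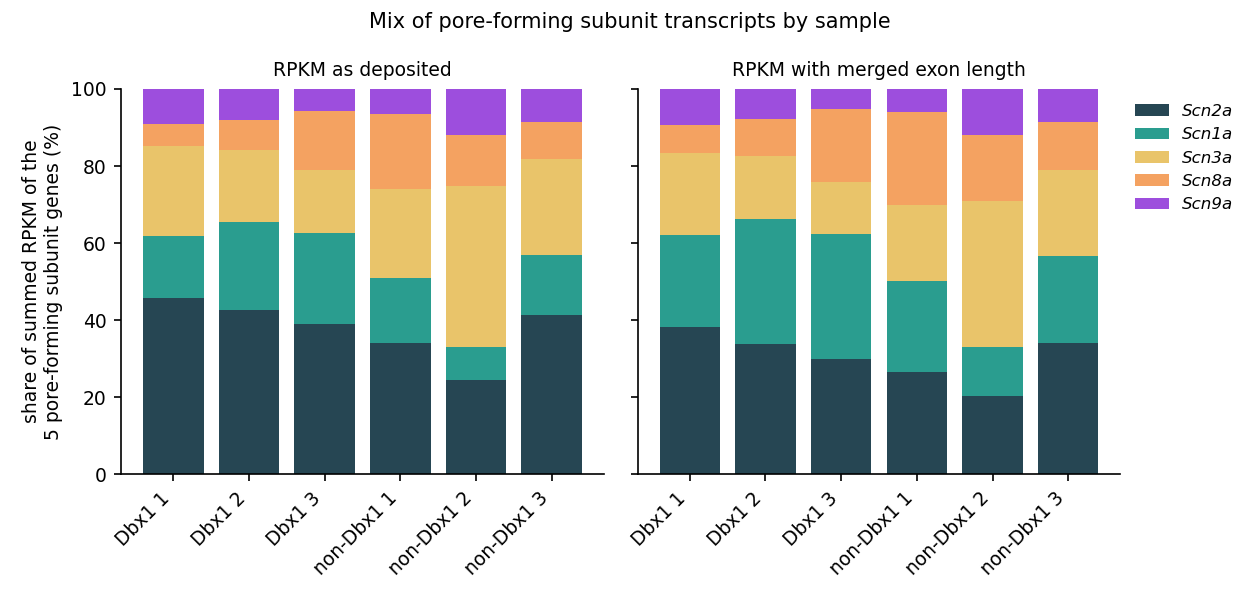
Each bar is 1 sample and its segments are the shares of the 5 α genes in their summed RPKM in percent, on the left with the deposited values and on the right with each exon base counted once in the length. Scn2a is the largest segment on the left except in non-Dbx1 replicate 2, where Scn3a is 41.7%, and Scn1a and Scn8a take more of the bars on the right.

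The order of the genes by level depends on the exon length that divides the reads. In the deposited RPKM the order over all 6 samples was Scn2a (16.9), Scn3b (16.1), Scn3a (10.2), Scn1a (8.16), Scn8a (5.56), Scn9a (3.45), Scn2b (1.62) and Scn4b (1.07). Of the 28 pairs of genes, 20 differed within samples at an FDR under 0.1 by exact sign-change permutation tests on log2(RPKM + 1), whose smallest p is 0.0312. Scn2a was above Scn1a, Scn8a, Scn9a, Scn2b and Scn4b in 6 of 6 samples. Of the 7 neighbours in the order, only Scn9a and Scn2b differed (higher in 5 of 6 samples, exact permutation p = 0.0625, FDR 0.0875), so the order from Scn2a to Scn9a is not resolved step by step.

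The lengths behind these values can be read back from the steps between RPKM values, and for 7 of the 8 genes they were longer than the merged exons, by amounts close to counting overlapping exons of different transcripts more than once. The annotation release behind them is not given in the sources used here, and over 13841 genes 47.8% of the lengths lay within 5% of the sum of distinct exons and 20.6% within 5% of the merged exons. For Scn3a, Scn9a, Scn2b and Scn4b the recovered length equalled the sum of all distinct annotated exons in GENCODE vM21, and for the other 4 it lay within 3.5% of that sum. The length used for Scn1a was 25400 bases where its merged exons cover 11146, a ratio of 2.28. For Scn3b it was 11825 against 5461 (2.17), for Scn8a 31745 against 15766 (2.01), and for Scn2a 16232 against 12732 (1.27). Scn4b has a single annotated transcript, and its 2 lengths were equal at 4982 bases. Over 13568 genes the median ratio was 1.34, and 39.4% of the genes had a ratio of 1.5 or more. The length cancels in any ratio of 1 gene between samples, so apart from the pseudocount it does not enter the L2FC of a gene, but genes with many annotated transcripts come out low beside genes with few.

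With each exon base counted once, Scn3b (34.9) came first, followed by Scn2a (21.5), Scn1a (18.6), Scn3a (14.2), Scn8a (11.2), Scn9a (5.31), Scn2b (2.86) and Scn4b (1.07). Scn3b thereby passed Scn2a and Scn1a passed Scn3a, neither of which differed from its neighbour in either order. Again 20 of 28 pairs differed, but they were not the same pairs. Scn2a above Scn1a (5 of 6 samples, FDR 0.125) and Scn3a above Scn8a (4 of 6 samples, FDR 0.175) no longer passed. Scn3b above Scn3a and, among neighbours, the step from Scn8a to Scn9a now passed (FDR 0.0875 each). The share of Scn1a in the α sum rose from 17.3% to 24.7%, while that of Scn2a became 30.4%, that of Scn3a 21.8%, that of Scn8a 14.9% and that of Scn9a 8.14%. On this scale the shares of Scn1a did not overlap between the groups, at 23.9%, 32.6% and 32.3% for Dbx1 and 23.5%, 12.8% and 22.8% for non-Dbx1 neurons (exact permutation test, p = 0.1, FDR 0.375 over the 5 shares). The merged length was an alternative chosen after the data were seen.

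**Figure D4:**
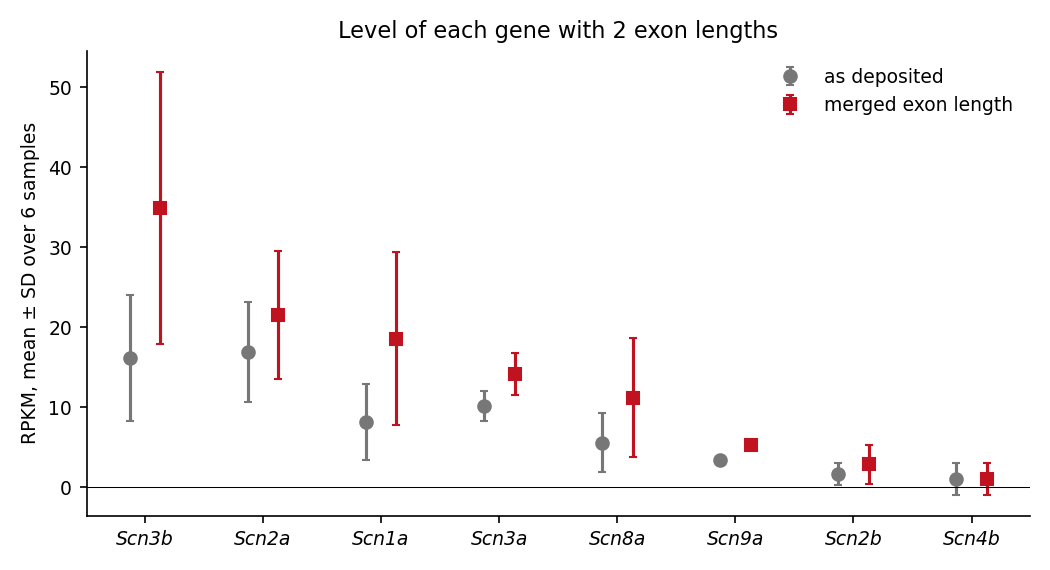
Points are the mean RPKM of each gene over 6 samples and bars the SD, with the deposited values in grey and the values for merged exon length in red. Scn3b moves from 16.1 to 34.9 and Scn1a from 8.16 to 18.6, while Scn4b stays at 1.07.

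Scn4a, Scn7a, Scn10a and Scn11a, further genes of the α family known mainly from muscle, glia or peripheral neurons, had few reads or none. Scn10a, the gene of Nav1.8 of sensory neurons, had no read in any sample. The skeletal muscle gene Scn4a had at most 2 reads in a sample, and Scn7a, whose product is gated by sodium rather than voltage, had at most 5. Scn11a, the gene of Nav1.9, was above 0 in Dbx1 replicate 3 alone, at an RPKM of 1.22 on at least 21 reads.

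The fibroblast growth factor homologous factors are intracellular proteins that bind the C-terminal tail of sodium channels and shift their inactivation. All 4 genes were above 0 in every sample. Fgf13 was the highest, at an RPKM of 76.3, 144 and 31.7 in Dbx1 neurons and 18.2, 106 and 87.8 in non-Dbx1 neurons, and its highest and lowest samples lay in different groups without separating them. Fgf12 was at 41.9, 36.4 and 24.4 against 22.2, 22.0 and 34.2. Fgf11 was at 5.61, 3.47 and 10.3 against 0.866, 4.25 and 8.27, and Fgf14 at 3.49, 6.60 and 5.14 against 1.92, 5.45 and 9.73. The groups of each of these overlapped. With all 6 samples the L2FC of all 4 was above 0 under each of 3 scalings, from 0.02 for Fgf14 to 0.62 for Fgf11, and none passed the test. Non-Dbx1 replicate 1 was the lowest of the 6 samples for Fgf11, Fgf13 and Fgf14, and directions without it are not given here, so the shared sign may rest on that sample. For Fgf14 the mean RPKM was lower in Dbx1 neurons (5.08) than in non-Dbx1 neurons (5.70), opposite to its L2FC.

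The scaffold of the axon initial segment and node holds sodium channels in place, through ankyrins, spectrin and cell adhesion molecules. All 7 of its genes were above 0 in every sample, 6 with an L2FC above 0 and 1 below, and 0 passed an FDR of 0.1. Nrcam, a cell adhesion molecule that binds ankyrin, was the only gene of the set with an unadjusted p under 0.05. Its RPKM was 21.8, 22.2 and 24.5 for Dbx1 and 14.5, 16.2 and 10.6 for non-Dbx1 replicates 1 to 3. The groups did not overlap, with means of 22.8 ± 1.47 and 13.8 ± 2.87 (SD, n = 3 each). Of all tested genes, 10.6% had groups that did not overlap and 5.2% had an unadjusted p under 0.05. The L2FC of Nrcam was 0.71 (standard error 0.279, limma FDR 0.912). Cntn1, which encodes the adhesion molecule contactin-1, had the highest mean of the list, with an RPKM of 37.2, 25.8 and 28.6 against 24.3, 22.7 and 38.6.

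Calmodulin, which binds the channel tail beside those factors, was encoded by 3 genes, 2 with an L2FC above 0 and 1 below. Calm2 was the highest, at an RPKM of 819, 622 and 491 in Dbx1 neurons and 522, 595 and 672 in non-Dbx1 neurons. Of 4 enzymes that act on sodium channel proteins (a ubiquitin ligase, the protease that cleaves β subunits, and 2 kinases), 3 had an L2FC above 0. Mapk14, the gene of the p38α kinase, was the highest of them, at 12.95, 8.82 and 6.25 against 23.4, 10.1 and 8.20.

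The 18 genes of these 4 lists of channel partners could all be tested, with a median L2FC of 0.13 beside 0.01 for all tested genes. With all 6 samples the L2FC was above 0 for 15 and below 0 for 3, under each of 3 scalings. Directions with a sample left out are not given for these genes. Under the same scalings 49.6% to 51.0% of all tested genes lay above 0. None had an FDR under 0.1 by limma, and 1 had an unadjusted p under 0.05 (Nrcam), where 5.2% of all tested genes did.

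For each subunit gene, the gene with the most similar profile over the 6 samples was sought among 13162 others with a mean RPKM of at least 1, by the root mean square difference of log2(RPKM + 1) after centring. For Scn1a it was Vars (0.203), for Scn2a Ppp2r3d (0.120), for Scn3a Ppig (0.0723) and for Scn9a Tceal3 (0.0734). For Scn8a it was Amer2 (0.104), whose RPKM of 5.69, 10.4 and 27.4 for Dbx1 and 20.8, 10.5 and 9.48 for non-Dbx1 replicates was high and low in the same samples. For Scn2b it was Depdc5 (0.0983), for Scn3b Ccdc30 (0.147) and for Scn4b Gm44152 (0.192). None of the 8 was itself a sodium channel gene or one of the 18 partners.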

How the data were processed

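RNA-seq was read from 6 samples of 15 neurons, 3 Dbx1 and 3 non-Dbx1, each from its own mouse. The authors deposited RPKM per gene and sample, unscaled between samples, made by alignment to mm10 with TopHat2, counting with HTSeq without strand and division by exon length from an Ensembl annotation whose release is not given in the sources used here. The deposited values are not counts, so RPKM was tested in place of the count test of the study, with reads recovered from RPKM used in a voom alternative.

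Reads per gene and exon lengths were recovered from the steps between RPKM values, as the smallest whole numbers that give them to a relative tolerance of 5e-06, for 99.99% of the genes above 0. Each sample held 6464675 to 9432958 reads on genes, a mean of 7815666. Positions and merged exon lengths came from GENCODE vM21 on GRCm38, which matched 95.3% of the names. Protein sequences were not used here, and some genes and sequences of the sodium channel family are not reported here.

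log2(RPKM + 1) was tested with limma 3.58.1 (eBayes with trend) in R 4.3.3 for the 17614 genes above 0 in at least 3 samples, two-sided, at an FDR of 0.1. The fit was tested on simulated data. Single values, shares, ratios and pairs of genes used exact permutation tests in Python 3.11.15 with numpy 2.4.6 and pandas 2.3.3, and plots used matplotlib 3.10.9.

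The 8 genes and the lists of partners and markers were chosen with earlier results of these data known. All 8 were to be named, with the genes of the sodium channel and homologous factor lists, and from other lists the gene with the highest mean and any with p under 0.05. Alternatives were another pseudocount (0.1), 2 filters, 2 scalings, no trend, a replicate block, voom, each sample left out, the log2 ratio of group means and other lengths. Merged exon length and the ratios between genes were added after seeing the data.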

Additional observations from a re-analysis of the deposited data

How the results depend on the processing

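No subunit gene reached an FDR under 0.1 under any alternative, and the lowest FDR of the 8 genes was 0.784. The L2FC of Scn1a, Scn2a, Scn3a, Scn3b and Scn9a kept its sign throughout. With each sample left out in turn it ranged from 0.44 to 1.21 for Scn1a, 0.30 to 0.86 for Scn2a, -0.38 to -0.14 for Scn3a, -1.26 to -0.31 for Scn3b and 0.01 to 0.15 for Scn9a. It turned for Scn8a (0.17 without non-Dbx1 replicate 1 and 0.23 without Dbx1 replicate 1, range -0.78 to 0.23), Scn2b (0.050 without non-Dbx1 replicate 1, range -0.80 to 0.050) and Scn4b (-0.13 without Dbx1 replicate 3, range -0.13 to 1.17). The log2 ratio of group means of Scn4b was 2.42. The causes were not tested. The number of subunit genes with p under 0.05 was 0 to 1, the 1 being Scn3b without Dbx1 replicate 1.

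Over all genes, 1 was called higher in the non-Dbx1 samples. The count was 0 with a pseudocount of 0.1, with genes above 0 in at least 1 sample and with voom, 3 without the trend, and 0 to 1 with a sample left out, and that of genes higher in the Dbx1 samples was 0 to 1 with a sample left out.

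The replicate numbers do not pair the samples, which came from 6 mice, and same-numbered samples had deviation correlations of -0.11, 0.02 and -0.05. With a replicate block, 0 genes were called higher in the non-Dbx1 samples.

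The share of Scn1a was 24.7% with merged and 24.1% with longest transcript length. The group difference in the share of Scn9a was 0.0888 percentage points without non-Dbx1 replicate 2, and -2.74 to 0.0888 with a sample left out. Leaving out a sample left 0 to 19 of the 28 pairs different in level, with 0 when Dbx1 replicate 1 or non-Dbx1 replicate 3 was left out and 18 or 19 otherwise. The smallest exact p of 5 samples is 0.0625, which passes an FDR of 0.1 over 28 pairs only where at least 18 pairs reach it. With 5 samples the count can therefore only be 0 or at least 18. Depth limits Scn4b most, with 232 reads in all.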

Other observations

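The partner gene nearest in profile to Scn8a was Sptbn4, which encodes the spectrin of the axon initial segment, with a root mean square difference of 0.310 on the centred log2 scale. Its RPKM was 1.26, 3.64 and 7.31 for Dbx1 and 4.66, 2.48 and 3.30 for non-Dbx1 replicates 1 to 3, so that Dbx1 replicate 3 and non-Dbx1 replicate 1 were the 2 highest for both genes. The same partner was nearest to Scn1a (0.478), Ank3 to Scn2a (0.346) and Calm3 to Scn3a (0.134). These genes were singled out after their values were seen, and no test was made.

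Dbx1 replicate 3 had the highest RPKM of the 6 samples for Scn1a, Scn2a, Scn8a and Scn4b and the largest share of its reads on the 8 subunit genes (0.161%). Nfasc, the gene of neurofascin, was at 24.8 in non-Dbx1 replicate 1 and between 2.88 and 7.76 in the other samples, and that sample also had the highest level of the oligodendrocyte marker Mbp. Whether the oligodendrocyte RNA has a part in the Nfasc value was not tested.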
